A study of Mus musculus with 44 samples.

Results

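The 100 kb next to the α-globin promoters on their enhancer side were followed restriction fragment by restriction fragment in primary mouse erythroid cells. They comprise every deposited fragment on chromosome 11 that lies whole within a fixed interval on that side, whose promoter-side edge is the zero point of the distances given here. The same 252 fragments were listed in each of the 3 α-globin tables, which hold 593979 fragments for the formaldehyde series, 210027 for the low-input series and 40575 for the whole low-input procedure. These 252 fragments run from 32080071 to 32181398 in mm9 coordinates and cover 101081 bases, with a median length of 300.5 bases (16 to 2201), and 44 of them are shorter than 100 bases. In all libraries the cells were Ter-119+ erythroid cells from the spleens of phenylhydrazine-treated female C57BL/6 mice, whose age the labels do not give. The formaldehyde series held 2 technical replicates each of cells fixed with 0%, 0.5%, 1%, 2%, 3%, 4% or 5% formaldehyde and processed with NG Capture-C. The low-input series held 3 libraries each of LI-Capture-C, in which the material is sheared by sonication, and Tag-Capture-C, in which a transposase cuts it, from 200, 100 and 50 ng of 3C library made after fixation with 2% formaldehyde. The whole procedure held 3 libraries each of LI-Capture-C at 4 cell numbers, 100000, 50000, 20000 and 10000, all fixed in the same way. The 0% material, unlike the rest of that series, was Dounce homogenised in water before digestion, and the centrifugation after that was skipped. Interaction counts hold no expression values, so the cell type was not checked against marker genes.

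The α-globin genes Hba-a1 and Hba-a2 encode the α chains of adult haemoglobin. Their erythroid enhancers lie on 1 side of the genes, mostly within introns of the neighbouring gene Nprl3, and are brought close to the promoters by folding of the chromatin in red cell precursors. In Capture-C, cross-linked chromatin is cut with DpnII, which recognises GATC, and religated, so that a fragment lying near a promoter in the nucleus becomes joined to it and is counted as a unique interaction. Contact falls with distance along the chromosome for any pair of sites, and enhancers and boundaries stand out as departures from that fall. RefSeq lists the genes around this side in the order Il9r, Snrnp25, Rhbdf1, Mpg, Nprl3, Hba-x, Hba-a1, Hbq1b and Hba-a2. Rhbdf1 encodes an inactive rhomboid protein, Mpg a DNA repair glycosylase, Snrnp25 a component of the minor spliceosome, Il9r the receptor of interleukin 9, Nprl3 a regulator of mTORC1 signalling and Hba-x the embryonic ζ-globin. This order comes from another genome build, so the genes were not placed on single fragments.

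The promoter that served as viewpoint is shown because both α-globin genes carry the same sequence there, and their contacts were counted together. The 250 bases before the Hba-a1 start site are given from RefSeq (GRCm38.p6, chr11:32283422-32283671, + strand, a build whose positions differ from those of the fragments), 5′ to 3′, with the GATA motif (GATAAG), the CCAAT box and the TATA box (TATAA) in capitals.
Hba-a1: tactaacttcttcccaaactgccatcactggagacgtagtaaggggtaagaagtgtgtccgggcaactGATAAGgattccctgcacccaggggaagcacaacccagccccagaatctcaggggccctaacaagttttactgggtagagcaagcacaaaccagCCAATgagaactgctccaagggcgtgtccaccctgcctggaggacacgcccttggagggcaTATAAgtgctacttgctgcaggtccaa
The tabulated promoter sequences of Hba-a1 and Hba-a2 were identical in 297 of 297 compared bases once shifted by 3 bases, and the deposited counts pool both promoters. The window held no GATC on either strand, whereas 41.9% of the 32851 promoters in the table held a GATC in the same 250 bases. The GATA motif, searched on both strands like the others, occurred in 6.55% of these promoter windows, the CCAAT box in 33.8% and the TATA box in 22.8%.

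Depth and the share of these interactions in the region differed greatly between libraries. Totals ran from 57467 to 168633 unique interactions in the formaldehyde series, from 5140 to 33512 in the low-input series and from 2571 to 52093 in the whole procedure. The 2 libraries without formaldehyde held only 72 and 119 interactions in the region and listed 200 and 176 of the 252 fragments at 0, so the contact profile was described from the 12 fixed libraries. The 2 libraries of 1% formaldehyde stood apart from each other: 39.3% of the interactions of the first and 58.4% of those of the second were in cis, meaning on chromosome 11. The formaldehyde trends are also given without them. In the low-input libraries, among counts outside chromosome 11, 17897 were 2 and only 14937 were 1, so counts may not be independent molecules and no counting interval is given. In the low-input series and the whole procedure, interactions named for other chromosomes lay at positions no higher than 121843145, near the end of chromosome 11, and 47.7% and 47.6% of those fragments had exactly the position of a chromosome 11 fragment with interactions in the formaldehyde series, where this held for 1 of 493256. Whether their names or their positions are wrong is unknown, so cis shares in these tables rest on the chromosome names as deposited, and shares of all interactions do not depend on them. The formaldehyde replicates are technical, and the low-input libraries are described by the study both as aliquots of 3C library and as biological replicates, so p-values measure only the spread between these libraries, part of which may be technical.

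Contact with the α-globin promoters was highest near the promoters and fell away from them. Whether it fell evenly was not tested. Values are interactions with a fragment per 100000 interactions of its library, averaged over libraries, and distances are from the promoter-side edge of the region to the middle of a fragment. Per kb of sequence, the mean over the 12 fixed libraries was 564 at less than 12 kb (32 fragments), 375 at 12 to 40 kb (64 fragments) and 87.8 beyond 40 kb (156 fragments). The same 3 values were 500.5, 387 and 107 in the low-input libraries and 439.7, 339 and 88.2 in the whole procedure. Per kb, the middle zone was thus closer to the near zone than to the far zone in each experiment. Over the 252 fragments, the mean interaction count of the fixed libraries had a Spearman's rho of -0.854 with distance and 0.345 with fragment length, which describes fragments of the same libraries that are not independent of each other.

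**Figure D1:**
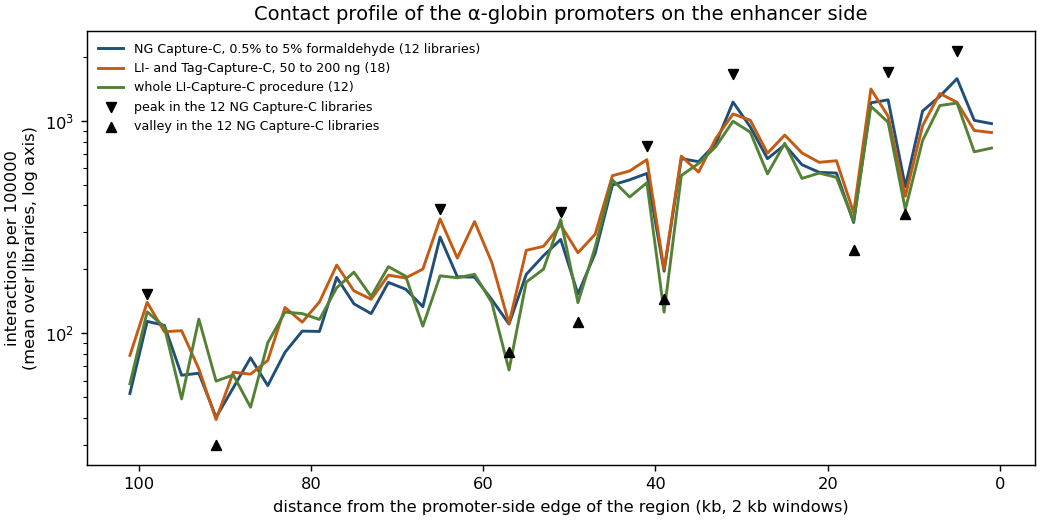
Interactions per 100000 in 2 kb windows (y axis, log scale) against distance from the promoter-side edge in kb (x axis, promoters to the right), as means over 12 NG Capture-C libraries of 0.5% to 5% formaldehyde, 18 low-input libraries and 12 libraries of the whole procedure. Down-pointing triangles stand above the 7 peaks and up-pointing triangles below the 6 valleys of the NG Capture-C mean, and the 3 lines dip together at 10 to 12, 38 to 40 and 56 to 58 kb.

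Contacts were spread over many fragments. In the fixed libraries 45 of the 252 fragments held 50 percent of the region's interactions, and the 10 with the most held 16.1%. The highest was the fragment nearest to the promoters, chr11:32180845-32181398, with 583 interactions per 100000 on average. Its values in replicates 1 and 2 were 133 and 110.0 at 0.5% formaldehyde, 172 and 489 at 1%, 415 and 780.3 at 2%, 741 and 778 at 3%, 809.6 and 846 at 4%, and 829 and 889 at 5%. It was also the highest in the low-input libraries, with a lowest value of 335, a median of 507 and a highest of 857, and in the whole procedure, with 156, 414 and 1237. The 3 experiments shared 7 of their 10 highest fragments in each pairing.

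Of the 10 highest fragments, 5 lay within 6 kb of the edge, 2 at 12 to 14 kb, 2 at 30 to 32 kb and 1 at 34.4 kb. The fragment chr11:32168682-32169411 (730 bases, 13.0 kb) averaged 358 in the fixed libraries and ranked 6th in the low-input libraries and 2nd in the whole procedure. Its values were 96.8 and 77.2 at 0.5%, 103 and 257 at 1%, 293 and 367 at 2%, 466 and 433 at 3%, 484 and 573 at 4%, and 552 and 591 at 5%. The libraries of 3% to 5% were all above those of 0.5% to 2%, and the low-input libraries, fixed with 2%, ran from 187 to 409 with a median of 320.2. The fragment chr11:32151062-32151881 (820 bases, 30.5 kb) averaged 318 and ranked 5th and 4th in the other experiments. It had 77.5 and 66.6 at 0.5%, 95.7 and 277 at 1%, 285 and 394 at 2%, 416 and 447 at 3%, 431 and 425 at 4%, and 448 and 452 at 5%. Its low-input values (221 to 545, median 290.5) and those of the whole procedure (211 to 566, median 269) overlapped those of all concentrations from 1% upwards.

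In 2 kb windows, the mean profile of the fixed libraries had 7 peaks and 6 valleys, each with a prominence of at least 1.5 times. The prominence is the fold between a peak and the deeper point that separates it from higher ground, and the reverse for a valley. It is not the fold against the adjacent windows, which can be close to the peak or valley. Peaks and valleys were chosen from these values and are a description without a test. The peaks lay at 4 to 6, 12 to 14, 30 to 32, 40 to 42, 50 to 52, 64 to 66 and 98 to 100 kb, and the valleys at 10 to 12, 16 to 18, 38 to 40, 48 to 50, 56 to 58 and 90 to 92 kb. Where contact falls with distance, a peak also makes a valley on its promoter side. Each peak window held 5 to 9 fragments and each valley window 2 or 3, so the peaks lay where the fragments were short and many and the valleys where they were few. Counted per kb of fragment instead, the profile had 8 peaks and 8 valleys and kept the valleys at 10 to 12, 38 to 40, 56 to 58 and 90 to 92 kb and the peaks at 12 to 14, 30 to 32, 50 to 52, 64 to 66 and 98 to 100 kb. The part of fragment number in the remaining peaks and valleys was not tested.

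A rise beyond the first 20 kb reached its top at 30 to 32 kb (chr11:32150001-32152000). This window held 1227 interactions per 100000 on average (± 669, SD, n = 12), and was above both neighbouring windows in 12 of 12 fixed libraries, 11 of 18 low-input libraries and 7 of 12 libraries of the whole procedure. The peak was found again under each of 6 other settings of window, scale and experiment, as was the peak at 98 to 100 kb, the farthest from the promoters, which held 114 (± 54.2). The 98 to 100 kb window was above both neighbours in 7 of 12 fixed, 13 of 18 low-input and 6 of 12 whole-procedure libraries. By concentration, the 30 to 32 kb window held 196 to 208 at 0.5%, 257 to 957 at 1%, 1031 to 1700.4 at 2%, 1622 to 1685 at 3%, 1710.1 to 1758 at 4% and 1727 to 1872 at 5%. The 2 libraries of a concentration from 3% upwards thus lay close together, and those of 1% differed several-fold. In the low-input libraries this window ran from 783 to 1362 with a median of 1014, and in the whole procedure from 653 to 1490 with a median of 881.

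Directly beyond that rise lay a valley at 38 to 40 kb (chr11:32142001-32144000), where the fixed mean fell to 196 (± 68.4, SD, n = 12) and returned to 566 in the next window. It was below both neighbours in 12 of 12 fixed, 18 of 18 low-input and 12 of 12 whole-procedure libraries. It is made of 2 fragments, of which chr11:32142086-32144132 spans 2047 bases and held 174 interactions per 100000, or 85.1 per kb, against 388 per kb in the fragment of 820 bases at the peak. At 10 to 12 kb, where the fragment chr11:32170702-32172142 of 1441 bases lies, the fixed mean was 491 (± 238) between 1113 and 1256 in the windows beside it. The peak beside it at 12 to 14 kb was above both neighbours in only 5 of 12 fixed, 1 of 18 low-input and 3 of 12 whole-procedure libraries, since the window at 14 to 16 kb held nearly as much (1217 against 1256) and was the higher one in the low-input and whole-procedure means, and it was found under 4 of the 6 other settings. The valley at 10 to 12 kb was below both neighbours in 9 of 12 fixed, 18 of 18 low-input and 12 of 12 whole-procedure libraries and appeared under all 6 other settings, and so did the valley at 56 to 58 kb (111 ± 22.4). The valley at 16 to 18 kb (333 ± 202) was present in 3 of the 6, and its window holds only 922 bases of fragment. This valley was below both neighbours in 12 of 12 fixed, 18 of 18 low-input and 10 of 12 whole-procedure libraries. The peaks at 40 to 42 and 50 to 52 kb were each found under 3 of the 6. So was the valley at 48 to 50 kb, and the valley at 90 to 92 kb under 4. The valley at 38 to 40 kb and the peak at 64 to 66 kb were found under 5. The low-input mean lacked the 50 to 52 kb peak and the 48 to 50 kb valley.

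The 4 to 6 kb window was the highest of the fixed profile, with 1581 (± 900.3, SD, n = 12). As a peak it was found under 3 of the 6 other settings. Per kb of fragment it was below the 12 to 14 kb window (786 against 810). Not counted per kb, the 4 to 6 kb window was the highest at each concentration from 1% to 5% and from 50000 cells. At 0.5% the window next to the promoters was highest. In the low-input libraries the highest window was 14 to 16 kb at 200 and 100 ng with both protocols and 6 to 8 kb at 50 ng with both. From 100000 and 10000 cells it was 14 to 16 kb, and from 20000 cells 6 to 8 kb. The order of these near windows therefore was not the same in the 3 experiments, which also differed in how duplicates had been filtered. The whole profiles were alike: over the 51 windows, log2 of the group mean plus 1 had a Pearson's r with the fixed mean of 0.924 to 0.999 in the groups of the fixation series, which take part in that mean, 0.869 to 0.980 in the low-input groups, and 0.966 and 0.981 from 50000 and 100000 cells. It was 0.827 and 0.835 from 20000 and 10000 cells, whose libraries held 533 to 2081 interactions in the region.

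**Figure D2:**
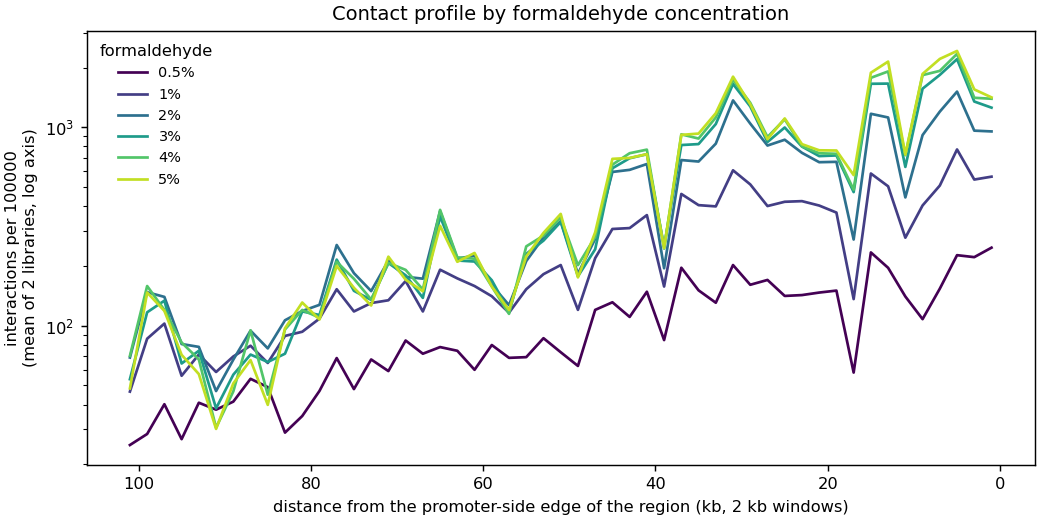
Interactions per 100000 in 2 kb windows (y axis, log scale) against distance from the promoter-side edge in kb (x axis, promoters to the right), as the mean of 2 technical replicates at each formaldehyde concentration. The lines of 3%, 4% and 5% lie together, that of 0.5% lies lowest near the promoters, and far from them the means run from 30.2 to 58.4 at 90 to 92 kb and from 28.4 at 0.5% to 158 at 4% at 98 to 100 kb.

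The first question of the design was how contacts change with the amount of cross-linking. The share of all interactions that fell in the region rose with formaldehyde. It was 0.0559% and 0.105% in the libraries without formaldehyde, 6.11% and 4.44% at 0.5%, 7.94% and 18.5% at 1%, 21.3% and 25.9% at 2%, 28.1% and 29.8% at 3%, 30.3% and 31.8% at 4%, and 31.5% and 32.5% at 5%. No 2 neighbouring concentrations overlapped up to 4%, and those of 4% and 5% did. Over the means of the 7 concentrations the slope was 6.54 percentage points per percent of formaldehyde (p = 0.00258, exact permutation test over all orders, two-sided, adjusted p = 0.0172 over 20 such tests). The slope was 6.69 without both 1% libraries (adjusted p = 0.00926), 12.0 within 0% to 2% (adjusted p = 0.104) and 1.53 within 3% to 5% (adjusted p = 0.432, exact permutation tests). The 4 and 3 concentrations of these subsets cannot give an exact p below 0.0833 and 0.333. Of cis interactions alone, the region held 0.979% and 1.84% in the 0% libraries and 17.1% to 20.2% in both 0.5% libraries and the first 1% library. It held 31.8% to 37.4% in the second 1% library and those of 2%, and 40.8% to 43.5% from 3% to 5%. Over the 7 concentrations, 0% included, the slope was 7.42 percentage points (adjusted p = 0.0357, exact permutation test). Without both 1% libraries it was 7.81 (adjusted p = 0.0139, exact permutation test). With the region trimmed by 10 kb at each end the slopes of all and of cis interactions were 4.38 and 4.82, and neither passed the threshold (adjusted p = 0.0525 for both).

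Within the region, the share of interactions in the near zone was higher and that in the far zone lower with more formaldehyde. The zone under 12 kb held a mean of 20.9% (± 0.634, SD, n = 2) of the region's interactions at 0.5%, 25.2% (± 1.71) at 2% and 31.8% (± 0.874) at 5%. The zone beyond 40 kb held 37.7% (± 4.63), 28.1% (± 5.54) and 20.3% (± 0.421), and the zone between them 41.4% (± 4.00), 46.7% (± 3.83) and 47.8% (± 0.453). The slopes over 7 concentrations were 2.06 percentage points per percent for the near zone (adjusted p = 0.0397), 1.36 for the middle zone (adjusted p = 0.0414) and -3.42 for the far zone (adjusted p = 0.0377, exact permutation tests). The 0% libraries enter these slopes with only 72 and 119 interactions, and without them the slopes were 2.62 (adjusted p = 0.0279), 1.49 (adjusted p = 0.0472) and -4.11 (adjusted p = 0.0279). Without both 1% libraries the near zone's slope was 1.93 (adjusted p = 0.0602) and that of the other 2 zones stayed past the threshold, and without the second 1% library alone the 3 slopes were 2.16 (adjusted p = 0.0536), 1.65 (adjusted p = 0.0933) and -3.81 (adjusted p = 0.0548). The middle zone also lost its call without 0% replicate 2 (1.19, adjusted p = 0.0645), 1% replicate 1 (1.07, adjusted p = 0.0648) or 2% replicate 1 (1.33, adjusted p = 0.112), and without the fragment with the most interactions (1.32, adjusted p = 0.0585). With fragments of at least 100 bases alone the near zone gave 1.93 (adjusted p = 0.0506) and the middle zone 1.37 (adjusted p = 0.0622). With the region trimmed by 10 kb at each end, which takes away most of the near zone, none of the 3 slopes passed the threshold (-0.0055, 3.46 and -3.45, adjusted p = 0.963, 0.0525 and 0.0525).

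**Figure D3:**
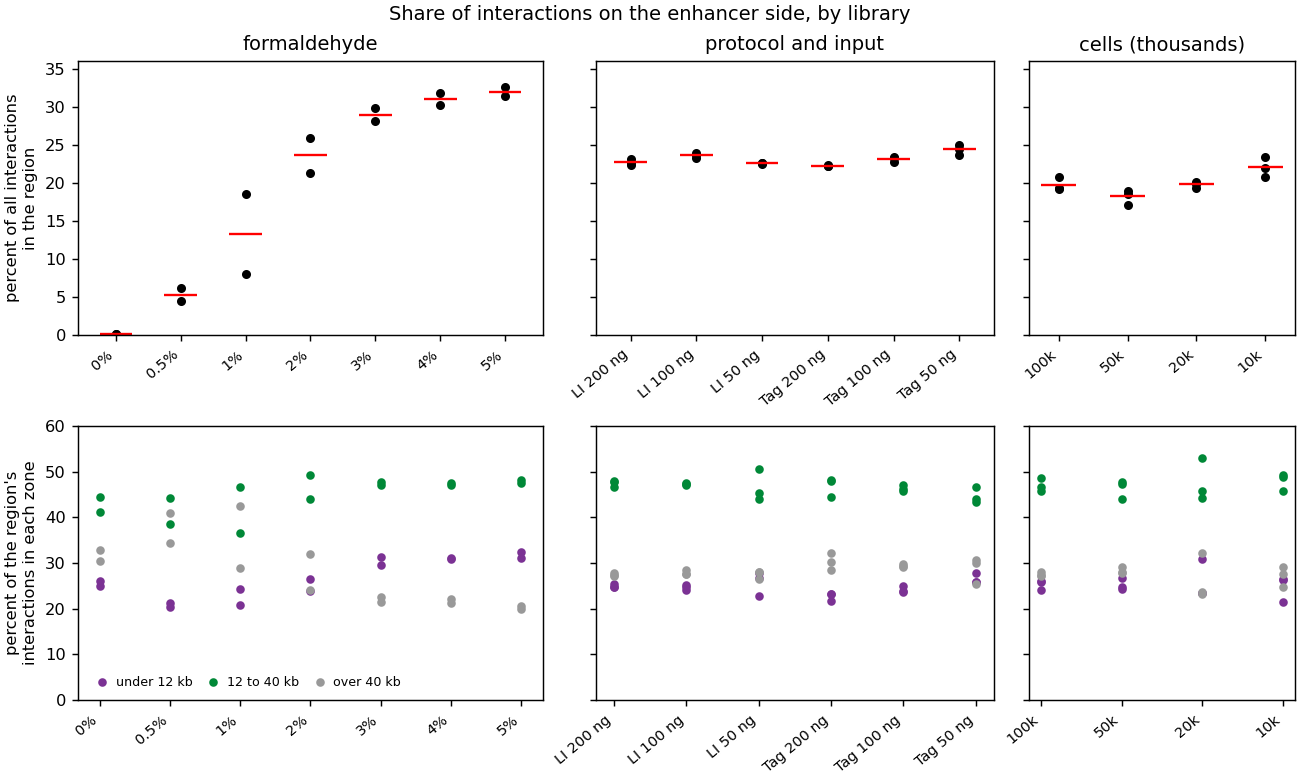
Upper panels plot the percent of all interactions of a library that fell in the region (points are libraries, red bars group means), lower panels the percent of the region's interactions in each of the 3 distance zones, by formaldehyde concentration, by protocol and input, and by cell number. The upper left panel climbs from under 1% to above 30%, and the other upper panels stay between 17.1% and 25.0%.

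Fragment by fragment, the formaldehyde trend was fitted over the 12 fixed libraries with edgeR's quasi-likelihood test for 364 fragments of the whole table with a mean count of at least 10, of which 233 lie in the region. The other 19 fragments of the region were not tested. Relative to the tested fragments as a whole, 77 of the 233 rose and 54 fell at an adjusted p under 0.05, while of all tested fragments 25.8% rose and 29.7% fell. Under 12 kb 29 of 32 rose and 0 fell, at 12 to 40 kb 40 of 64 rose and 3 fell, and beyond 40 kb 8 of 137 rose and 51 fell. Of those called, the nearest that fell lay at 18.1 kb and the farthest that rose at 50.7 kb. At 45 kb, an edge placed on these same calls, 76 rose and 5 fell nearer and 1 rose and 49 fell beyond. These counts depend on the count minimum and on how replicates enter: 107 rose and 28 fell with a mean count of at least 5, 106 and 22 with the 2 replicates of a concentration summed, and 0 and 0 with no count minimum, where 428519 fragments were tested (85 and 8 at an unadjusted p under 0.05, edgeR). Without both 1% libraries 71 fragments of the region rose and 46 fell. The split also depends on the scale. When library totals took the place of the tested fragments, 143 rose and 0 fell (2 at an unadjusted p under 0.05, edgeR), and the 77 were among those that rose. The median slope over the region was 0.41 in place of 0.05 and over all tested fragments 0.33 in place of -0.02 (log2 per percent). The 54 fragments thus fell relative to the others and not as a share of all interactions, on which 12 of them had a slope below 0.

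**Figure D4:**
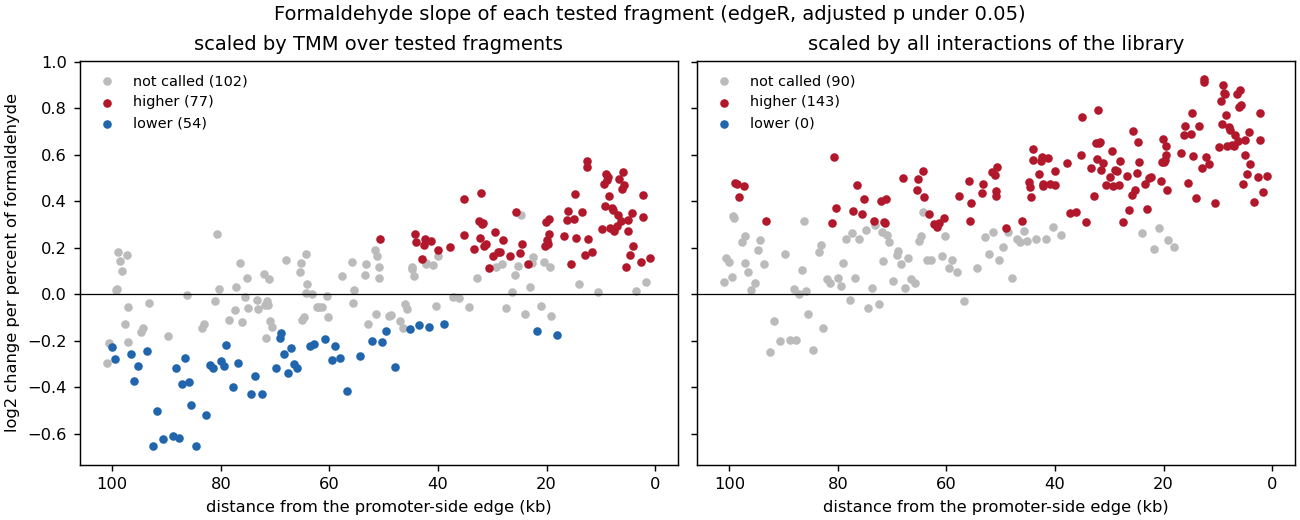
Slope of each tested fragment of the region (y axis, log2 change per percent of formaldehyde, edgeR) against distance from the promoter-side edge in kb (x axis, promoters to the right), scaled over the tested fragments (left) or by all interactions of the library (right), with red for higher, blue for lower and grey for not called. On both scales slopes are higher towards the promoters, but the zero line lies within the points on the left (77 higher, 54 lower) and below nearly all of them on the right (143 higher, 0 lower).

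The 5 rising fragments of lowest adjusted p lay at 6 to 13 kb, and 3 of them were shorter than 100 bases. The fragment chr11:32169470-32169527, of 58 bases at 12.5 kb, had 12.4 and 5.29 interactions per 100000 at 0.5%, 22.4 and 57.5 at 1%, 88.4 and 155 at 2%, 191 and 196 at 3%, 219.5 and 285 at 4%, and 308 and 277 at 5%. Its slope was 0.55 ± 0.07 (log2 per percent, SE, adjusted p = 6.31e-06, edgeR), and every library of 3% to 5% was above every library of 0.5% to 2%. Its neighbour chr11:32169412-32169469, also of 58 bases, had a slope of 0.57 ± 0.08 and went from 7.75 and 13.7 at 0.5% to 336 and 349 at 5%. The slopes of chr11:32173092-32173392 (8.76 kb), chr11:32175363-32175501 (6.57 kb) and chr11:32173029-32173091 (8.94 kb) were 0.50, 0.49 and 0.49. On the scale of library totals the 5 slopes were 0.86 to 0.92.

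The 5 that fell with the smallest adjusted p lay at 72 to 93 kb and were 787 to 1497 bases long. The fragment chr11:32088874-32090071, at 92.5 kb, had 29.4 and 15.9 interactions per 100000 at 0.5%, 44.8 and 42.4 at 1%, 33.2 and 33.6 at 2%, 26.1 and 24.5 at 3%, 25.2 and 17.9 at 4%, and 8.35 and 19.4 at 5%. Its slope was -0.65 ± 0.08 (adjusted p = 6.31e-06, edgeR) and on the scale of library totals -0.25 (adjusted p = 0.0569), with the highest values at 1% and libraries of 0.5% and 5% that overlapped. The slopes of chr11:32092508-32093786, chr11:32096663-32098159, chr11:32109026-32109961 and chr11:32107238-32108024 were -0.61, -0.65, -0.43 and -0.43, and on the other scale -0.20, -0.24, -0.04 and -0.06. On that scale none of these 4 passed the threshold.

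Among the 10 highest fragments 7 rose and 0 fell relative to the tested fragments, and all 10 rose as a share of all interactions. Length also went with the slope. In the zone under 12 kb the median slope was 0.42 for the 7 tested fragments shorter than 100 bases and 0.29 for the 25 longer ones. At 12 to 40 kb it was 0.32 for 11 and 0.18 for 53, and beyond 40 kb 0.12 for 11 and -0.12 for 126. Fragments shorter than 100 bases cover 2.32% of the region's sequence and held 2.86% and 3.71% of its interactions at 0.5%, 4.23% and 6.10% at 1%, 6.57% and 8.44% at 2%, and 8.21% to 9.21% from 3% to 5%. The part of fragment length in the formaldehyde slopes was not tested.

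Labels of the 0% to 2% libraries carry a sample number and a lane that those of 3% to 5% lack. Whether these were sequenced separately is not stated. With a term for these sets 0 fragments of the region were called in either direction (21 and 18 at an unadjusted p under 0.05), although the fitted slope kept its sign in 77 of the 77 that rose and 52 of the 54 that fell. Within 0.5% to 2% alone 42 rose and 8 fell, and within 3% to 5% 0 were called (13 and 7 at an unadjusted p under 0.05, edgeR). The step between the sets and the step from 2% to 3% formaldehyde cannot be told apart.

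The contrast between peaks and valleys was lower at low formaldehyde. The 30 to 32 kb window held 1.84 and 3.49 times the content of the 38 to 40 kb window at 0.5%, 2.23 and 4.79 times at 1%, 5.54 and 8.37 times at 2% and 6.05 to 8.44 times from 3% to 5%. The 12 to 14 kb window held 1.34 and 1.47 times that of the 10 to 12 kb window at 0.5%, 1.28 and 2.12 times at 1%, and 2.08 to 3.10 times from 2% to 5%. At 64 to 66 kb against 56 to 58 kb the ratios were 1.09 and 1.20 at 0.5% and 2.56 to 3.89 from 2% to 5%. In the low-input libraries the 3 ratios had medians of 5.23, 2.37 and 3.27, and in the whole procedure 6.51, 2.47 and 1.88, where 1 library of 10000 cells had no detectable interaction in the 38 to 40 kb window and 3 libraries none in the 56 to 58 kb window. These windows were chosen for their contrast in the mean of the fixed libraries, so the ratios carry no test. In that mean the libraries of 3% to 5% weigh most, as they had the highest shares of all interactions in the region. What this choice adds to the ratios was not tested.

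**Figure D5:**
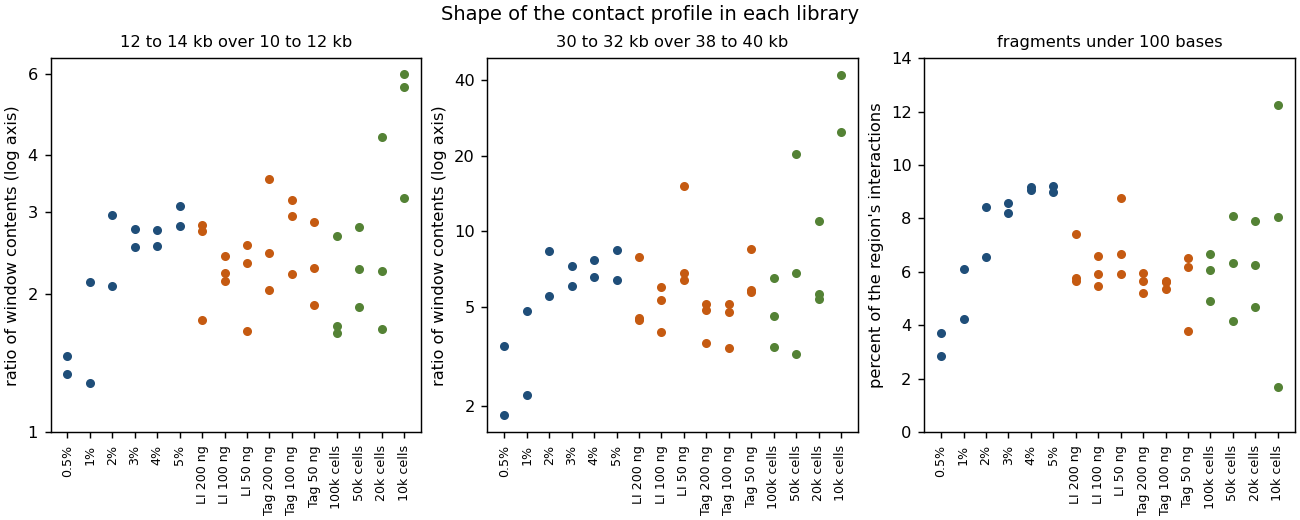
Ratio of the 12 to 14 kb window to the 10 to 12 kb window (left, log axis), ratio of the 30 to 32 kb window to the 38 to 40 kb window (middle, log axis) and percent of the region's interactions in fragments shorter than 100 bases (right) in each library, with NG Capture-C in blue, the low-input series in orange and the whole procedure in green. In blue, the mean of each measure is lowest at 0.5% and 1%, and the libraries of 10000 cells lie far apart, of which 1 has no interaction in the 38 to 40 kb window and so no ratio in the middle panel.

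The second question was whether the protocol and the amount of 3C library change the contacts. Between the sonication and the transposase protocol, 0 of the 101 tested fragments of the region differed in either direction, while 0% of the 133 tested fragments of the whole table were higher with Tag-Capture-C and 0.752% lower. At an unadjusted p under 0.05 5 were higher and 4 lower, and DESeq2 called 2 and 1. With input, 0 of 101 were called in either direction (4 higher and 3 lower unadjusted, 0 by DESeq2), and of all tested fragments 0% and 0%. The difference between the protocols' input trends was called for 0 of 101 (1 and 4 unadjusted, not run in DESeq2) and for 0% and 0% of the whole table. The other fragments of the region had a mean count under 10 and were not tested.

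Sums over the region were compared as well. The fits of single fragments were scaled over 133 tested fragments, of which 101 lie in the region. A change shared by the whole region would largely be scaled away in them. The region held 35.2%, 34.3% and 34.8% of cis interactions with LI-Capture-C from 200 ng and 33.5%, 33.5% and 33.4% with Tag-Capture-C. From 100 ng the values were 35.3%, 36.3% and 35.9% against 34.7%, 34.6% and 34.2%, and from 50 ng 36.9%, 36.3% and 36.7% against 36.6%, 35.0% and 36.4%. The protocols did not overlap at 200 and 100 ng and overlapped at 50 ng, and over the 3 inputs Tag-Capture-C was lower by 1.10 percentage points (difference -1.10, p = 0.00075, exact permutation test within inputs, adjusted p = 0.0075). The share also fell by 1.10 percentage points per doubling of input (slope -1.10, p = 1e-05, the smallest that 100000 permutations can give, adjusted p = 0.0002). With the region trimmed by 10 kb at each end neither passed the threshold (-0.631 for the protocol, adjusted p = 0.0606, and -0.405 for input, adjusted p = 0.0525), nor did the protocol with fragments of at least 100 bases (-0.710, adjusted p = 0.0506). As a share of all interactions the region held 22.2% to 25.0% in these libraries, with a difference of 0.318 percentage points between protocols (adjusted p = 0.407, exact permutation test) and a slope of -0.495 per doubling of input (adjusted p = 0.0498, permutation test), which no longer passed the threshold when any of 12 of the 18 libraries was left out. The deeper libraries are also those of more input, with totals of 5140 to 6420 at 50 ng and 14774 to 33512 at 200 ng, and depth and input cannot be told apart.

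The zones differed by at most a few percentage points. Beyond 40 kb Tag-Capture-C libraries held 28.5% to 32.1% of the region's interactions from 200 ng and LI-Capture-C libraries 27.3% to 27.8%. From 100 ng the shares were 29.2% to 29.7% against 27.5% to 28.4%. From 50 ng they overlapped, with 25.4% to 30.7% against 26.5% to 28.1%. Over the 3 inputs the difference was 1.85 percentage points (adjusted p = 0.0397, exact permutation test). That call was lost with the trimmed region (2.26, adjusted p = 0.0525), without the fragment with the most interactions (1.78, adjusted p = 0.0525) and when any of 5 libraries was left out, with the smallest difference, 1.52, without Tag-Capture-C 50 ng replicate 2 (adjusted p = 0.0821). The near zone's share changed by -1.17 per doubling of input (adjusted p = 0.0377, permutation test), from means of 25.8% and 26.6% at 50 ng to 25.0% and 22.7% at 200 ng, with LI-Capture-C named first. It was -0.932 without Tag-Capture-C 50 ng replicate 1 (adjusted p = 0.0555) and -0.985 without Tag-Capture-C 200 ng replicate 3 (adjusted p = 0.0543), and it lost its call without the fragment with the most interactions (-0.937, adjusted p = 0.0585) and with the trimmed region (0.0351, adjusted p = 0.903). The remaining zone differences between protocols were -0.672 for the near zone and -1.18 for the middle zone (adjusted p = 0.407 and 0.246), and the remaining slopes on input 0.763 for the middle and 0.404 for the far zone (adjusted p = 0.210 and 0.407, permutation tests).

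The third question was how few cells give these contacts. The region held 19.3%, 20.8% and 19.1% of all interactions with 100000 cells, 17.1%, 18.9% and 18.5% with 50000, 19.4%, 20.1% and 19.9% from 20000, and 23.4%, 22.0% and 20.7% from 10000. The libraries of 10000 cells overlapped only those of 100000 cells, and the lowest group was 50000 cells, so the shares did not follow the order of cell numbers. The slope was -0.756 percentage points per doubling of cells (adjusted p = 0.0523, permutation test), and of cis interactions alone -0.982 (adjusted p = 0.0414). The latter was -0.600 without 10000 cells replicate A (adjusted p = 0.150) and lost its call without any of 5 further libraries, without the fragment with the most interactions (-0.924, adjusted p = 0.0525), with the trimmed region (-0.797, adjusted p = 0.0890) and with fragments of at least 100 bases (-0.777, adjusted p = 0.0752). The slopes of the 3 zones were 0.0865, -0.388 and 0.301, from near to far (adjusted p = 0.888, 0.590 and 0.657).

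Of the 116 fragments of the region that could be tested, 0 changed with cell number in either direction (4 higher and 0 lower at an unadjusted p under 0.05, 0 by DESeq2), and of all 167 tested fragments 0% and 0%. Fewer fragments were seen in the groups of fewer cells, which were also shallower, and depth and cell number cannot be told apart: totals were 42989 to 52093 interactions with 100000 cells, 9800 to 21250 with 50000, 6742 to 10329 with 20000 and 2571 to 3394 with 10000. Of the 252 fragments, 16 to 18 had no interaction in the libraries of 100000 cells, 37 to 82 in those of 50000, 66 to 95 in those of 20000 and 128 to 139 in those of 10000. Only 51 fragments had an interaction in each of the 12 libraries, against 101 in each of the 18 low-input libraries and 226 in each of the 12 fixed libraries. At the 38 to 40 kb valley the libraries of 10000 cells held 0 to 59.6 interactions per 100000, and at the 50 to 52 kb peak 236 to 1128, against 242 to 338 from 100000 cells. Over single fragments, log2 of the mean plus 1 had a Pearson's r of 0.953 between the fixed and the low-input means, 0.906 between the fixed and the whole-procedure means and 0.897 between the low-input and the whole-procedure means, over 252 fragments that share libraries and are not independent.

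Beside the region of the same length on the other side of the genes, the enhancer side held more interactions in every library with log2 ratios of 1.34 to 2.87. The log2 ratio was 2.00 and 2.04 without formaldehyde, from only 72 against 18 and 119 against 29 interactions. It was 1.42 and 1.67 at 0.5%, 1.34 in the first 1% library and 2.34 in the second. At 2% it was 2.18 and 2.71, and from 3% to 5% it was 2.63 to 2.79.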

How the data were processed

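The deposited values were counts of unique interactions per DpnII fragment, 1 column per library, which the authors made from paired reads with their capture analysis, and the submitters' processing notes name Trim Galore, Bowtie and mm9 without versions. In the low-input libraries, reads whose ends differed from another's by 1 or 2 positions had also been removed as duplicates, whereas in the formaldehyde series only exact copies had. The authors' tables pool the Hba-a1 and Hba-a2 promoters. All 44 libraries were used, grouped by their labels, and the columns of the whole procedure were known by group and letter only.

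Counts were scaled to 100000 interactions per library. Single fragments were tested with edgeR 4.0.16 (R 4.3.3, quasi-likelihood, TMM over the tested fragments, mean count of at least 10, Benjamini-Hochberg over all tested fragments of a table, threshold 0.05), with a linear term for formaldehyde or for log2 of input or cell number, and with DESeq2 1.42.0 as an alternative. Shares per library were tested by two-sided permutation (SciPy 1.17.1, NumPy 2.4.6 and pandas 2.3.3 under Python 3.11.15) and adjusted over 20 tests. Formaldehyde shares were tested over all orders of the concentration means, protocols by all exchanges within an input, and input (within protocol) and cell number by 100000 permutations. Figures were drawn with matplotlib 3.10.9. Peaks and valleys were sought in 2 kb windows counted from the promoter-side edge, with a fragment placed by its middle, on the log2 mean of the 12 libraries of 0.5% to 5% formaldehyde, at a prominence of at least 1.5 times. Named were the 10 fragments with the most interactions, the fragment with the most in each peak window and the lowest per kb of at least 100 bases in each valley window, and up to 5 with the smallest adjusted p in each direction of a fit.

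The fits were tested on simulated counts: of 72 fragments given 0.4 per percent in the formaldehyde design of 364 fragments 71 were found with 4 false calls, of 26 given a log2 difference of 1 between protocols (133 fragments) 25 with 1, of 26 given 0.7 per doubling of input 26 with 1, and of 33 given 0.7 per doubling of cells (167 fragments) 33 with 0. The simulated spread between libraries was fixed in advance and not taken from the data, so these numbers do not say what the real fits could find. In the data, chr11:32135766-32135979 had 0.83 ± 0.39 per doubling of cells (SE, adjusted p = 0.682, edgeR). Between protocols, chr11:32141862-32142056 had 0.90 ± 0.30 (adjusted p = 0.105, edgeR). Alternatives covered scaling, count minimum, tool, window, prominence, region edges, short fragments, subsets of concentrations, replicate blocks and each library left out. The region, windows and rules were chosen with earlier results of these data known. RefSeq (GRCm38.p6) gave the promoter sequence and the order of genes, and no mm9 genome was used here, so no fragment sequence or gene overlap is given.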

Additional observations from a re-analysis of the deposited data

How the results depend on the processing

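When any 1 library was left out, the 10 named slopes kept direction and call, and 275 of 310 comparisons of shares did too. The counts ran from 64 to 81 higher and 44 to 56 lower for formaldehyde, 0 to 2 lower for the protocol (1 without Tag-Capture-C 100 ng replicate 2, Tag-Capture-C 50 ng replicates 2 or 3, LI-Capture-C 50 ng replicate 1 or LI-Capture-C 200 ng replicate 3, and 2 without LI-Capture-C 50 ng replicate 3) and 0 for input and cell number, with 7 to 8 peaks and 6 to 7 valleys. In percentage points, the formaldehyde slopes ran from 6.23 to 6.85 of all, 7.08 to 7.75 of cis, and 1.96 to 2.16, 1.07 to 1.65 and -3.81 to -3.02 for the near, middle and far zones. The middle zone lost its call without 0% replicate 2 (1.19), either 1% library (1.07 and 1.65) or 2% replicate 1 (1.33). The protocol differences, in the same order, ran from 0.215 to 0.429, -1.20 to -0.931, -1.15 to -0.334 (adjusted p = 0.0345 in a permutation test without LI-Capture-C 50 ng replicate 2), -1.61 to -0.525 and 1.52 to 2.39. The far zone lost that call without Tag-Capture-C 50 ng replicates 2 (1.52) or 3 (1.64), LI-Capture-C 50 ng replicates 1 (1.93) or 2 (1.68) or LI-Capture-C 200 ng replicate 2 (1.81). The slopes on input ran from -0.599 to -0.366, -1.18 to -1.01, -1.52 to -0.932, 0.522 to 1.20 (adjusted p = 0.0238 in a permutation test without LI-Capture-C 50 ng replicate 2) and 0.0295 to 0.568. The slope of all interactions on input lost its call without any Tag-Capture-C library and without LI-Capture-C 100 ng replicate 1 or 200 ng replicates 2 or 3. The slopes on cell number ran from -0.990 (adjusted p = 0.0286 in a permutation test without 100000 cells replicate D) to -0.513, -1.16 to -0.600, -0.318 (without 10000 cells replicate E) to 0.300, -0.618 to -0.181 and 0.0643 to 0.550. The cis slope lost its call without 10000 cells A or C, 20000 cells D, 50000 cells D or E, or 100000 cells A.

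With the region trimmed by 10 kb at each end, which takes away most of the near zone, formaldehyde gave 4.38 of all, 4.82 of cis, -0.00553, 3.46 and -3.45, the protocol -0.631 of cis and 2.26 in the far zone, input -0.0976 of all, -0.405 of cis, 0.0351 in the near and -0.0926 in the far zone, and cell number -0.797 of cis, none of them past the threshold. With fragments of at least 100 bases the near and middle zones gave 1.93 and 1.37 for formaldehyde, cis -0.710 for the protocol and -0.777 for cell number, and all interactions -0.428 for input. Without the fragment with the most interactions the values were 1.32 (formaldehyde, middle), 1.78 (protocol, far), -0.408 and -0.937 (input, all and near) and -0.924 (cell number, cis). Within 0% to 2% formaldehyde gave 12.0, 16.2, 0.457, 2.18 and -2.63, within 3% to 5% 1.53, 0.859, 0.647, 0.207 and -0.853, and without both 1% libraries, chosen after seeing the data, 1.93 in the near zone. These calls were lost. Within 0% to 2% and within 3% to 5% the loss was fixed in advance. The exact permutation tests of these subsets cannot give a p below 0.0833 and 0.333. For the other settings the cause was not tested.

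For single fragments, formaldehyde calls numbered 143 higher and 0 lower by library totals, 107 and 28 with a mean count of at least 5, 0 and 0 with no count minimum, and 106 and 22 with the 2 replicates of a concentration summed. They numbered 0 and 0 with a term that sets 0.5% to 2% apart from 3% to 5%. In subsets chosen after seeing the data, they were 42 and 8 within 0.5% to 2% and 0 and 0 within 3% to 5%. The protocol gave 0 and 1 by totals, 2 and 1 by DESeq2 and 1 and 1 with no count minimum, input 1 and 0 and cell number 17 and 1 with no count minimum, and cell number 1 and 0 with a mean count of at least 5. Windows of 1 kb gave 26 peaks and 26 valleys and windows of 3 kb 4 and 4. Replicate numbers did not meet the criterion for pairing, that every pair of libraries with the same number correlates above 0.1: residuals of libraries with the same number had a mean correlation of 0.068 in the formaldehyde series (10 of 30 pairs over 0.1, 10 of 12 libraries closest to their own number, which is a hint from the data and not from the design) and -0.0028 in the low-input series (4 of 45 and 4 of 18). A replicate block left 77 higher and 54 lower for formaldehyde and 0 and 0 for protocol, input and their interaction. Columns of the whole procedure carry letters that the labels do not explain, some of them shared between cell numbers. Residuals of the 11 pairs with the same letter had a mean correlation of -0.037 (0 over 0.1, 0 of 12 libraries closest to their own letter), and a block by letter, chosen after seeing the data, left 0 and 0.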
